A study of Homo sapiens with 11 samples.

Results

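In Ishikawa, a cell line from a human endometrial cancer, 1170 of 27111 H3K27ac regions (4.32%) were called only after treatment with estradiol and dexamethasone together. H3K27ac is acetylation of lysine 27 of histone H3, a mark of active promoters and enhancers. The 1170 regions, called members here, were chosen by the H3K27ac calls themselves. Overlapping or adjoining peaks of the 4 H3K27ac lists were merged, and a region was kept when it held a peak of the combination list and no peak of the vehicle, estradiol or dexamethasone list. Every H3K27ac value of the members is therefore a description, also where it stands beside that of other peaks or regions. The receptor sites were not used in the choice, and their shares were compared with those of other regions.

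All groups used this line, kept for days in medium with hormone-stripped serum before treatment. The 4 groups of H3K27ac libraries were vehicle (DMSO), 10 nM estradiol, 100 nM dexamethasone, and 10 nM estradiol with 100 nM dexamethasone (the combination), for 8 h per the treatment labels. Estrogen receptor (ER) was mapped after 1 h of estradiol or the combination, and glucocorticoid receptor (GR) after 1 h of dexamethasone or the combination. Receptor lists for vehicle cells were not analysed here. Each group was 1 library of 1 cell line, so no spread between replicates exists and no p-value is given. The 95% intervals below are over regions or sites, cover counting error only and treat regions as independent. Neighbouring regions can share a receptor site, so the intervals can be too narrow.

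ER and GR are nuclear receptors that bind DNA when their hormones are present, ER with estradiol and GR with glucocorticoids such as dexamethasone. Bound receptors recruit coactivators that include histone acetyltransferases, and the nucleosomes beside a bound enhancer gain H3K27ac while the bound DNA itself is often depleted of nucleosomes. In the endometrium, estrogen drives epithelial growth, and glucocorticoids counter part of the estrogen response.

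The H3K27ac libraries differed in depth. The combination library held 9657258 usable tags, beside 10852521 with estradiol, 9034395 with dexamethasone and 18508574 with vehicle. Duplicates made up 33% of the dexamethasone tags and 18% to 22% of those of the other H3K27ac libraries. The dexamethasone list was the shortest, with 15192 peaks against 20873 for the combination. When the dexamethasone list was not asked to lack the region, the number of regions rose from 1170 to 2275. When all 4 lists were trimmed to the 15192 strongest peaks, 819 regions met the rule. These 819 were not a subset of the 1170. Trimming dropped the weakest 25% of the combination list, where 816 members lay, and it also dropped peaks of longer lists that had kept regions out. The part of depth in the absence of a call was not tested.

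The members were weak and narrow by the standard of their own list. Each member was a single combination peak. Pileup, the deposited fragment coverage at the summit, ranged from 14 to 55 with a median of 24, against a median of 40 for the other 19703 combination peaks. The deposited fold enrichment over control had a median of 8.25 in members and 10.1 in the other peaks, and the highest member reached 24.0. In total, 816 members (69.7%) lay in the weakest 25% of the combination list, and 3 lay in its strongest 25%. The median width was 344 bp in members and 621 bp in the other peaks. The smallest width in the list, 280 bp, was that of 116 members (9.91%) and of 1.91% of the other peaks. Only 10 members were 1000 bp or wider.

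The border of the rule was thin in places. The 5 members closest to another list's peak were separated from it by 2, 2, 4, 8 and 12 bp. On the other side of the rule, the 5 combination peaks with the least overlap shared 1, 1, 1, 2 and 3 bases with another list. A further measure was looser: 127 combination peaks outside the set overlapped other lists by 1 to 100 bases. With under 50% of the peak covered as the rule, the set held 1633 peaks.

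Many members lay at the flank of acetylation that other treatments also had. The median distance from a member to the nearest peak of any other list was 929 bp, and 599 members (51.2%) had such a peak within 1 kb. Estradiol peaks were the closest, within 1 kb of 481 members (41.1%), with a median distance of 2498.5 bp. Dexamethasone peaks lay within 1 kb of 325 members (27.8%) and vehicle peaks of 262 (22.4%), with medians of 10445 and 11709 bp. The estradiol list was also the longest, with 23888 peaks of a median width of 650 bp. The vehicle list held 21120 peaks (547 bp) and the dexamethasone list 15192 (471 bp). The part of list length and peak width in these distances was not tested. A region held by another set of lists lay within 1 kb of 610 members (52.1%), beside 44.2% over all 27111 regions. The share was 61.1% for regions of the dexamethasone list alone, 54.8% for vehicle alone, 44.5% for estradiol alone and 37.9% for regions of all 4 lists, so the members lay within the range of the other classes.

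**Figure D1:**
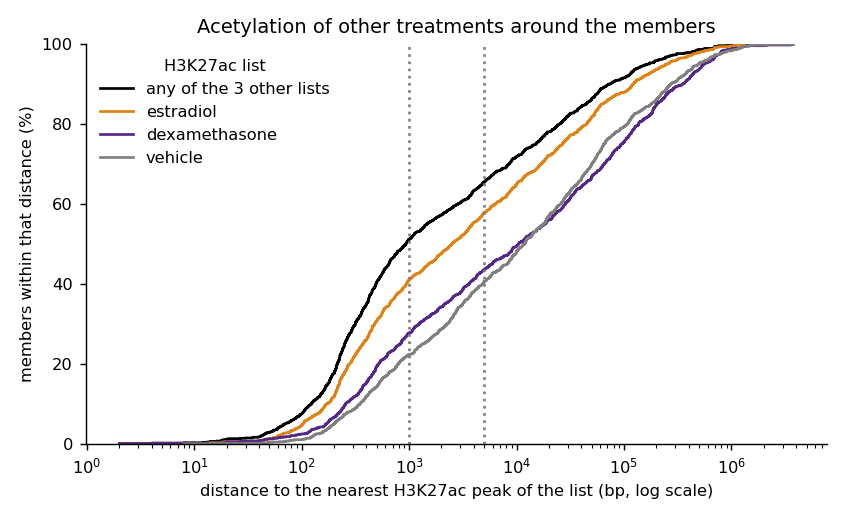
Cumulative share of the 1170 members (y axis, %) against the distance to the nearest H3K27ac peak of each other list (x axis, bp, log scale). The estradiol curve lies left of the others and reaches 41.1% at 1 kb (first dotted line), and 65.6% of members have a peak of some other list within 5 kb (second dotted line).

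The neighbouring regions were of several kinds, whose counts were not set against the neighbours of other regions. Of the 610, 191 belonged to all 4 lists, 97 to the estradiol and combination lists, 77 to the estradiol list alone, 58 to the dexamethasone and combination lists, and 38 to the dexamethasone list alone. In all, 490 (80.3%) held an estradiol peak and 151 (24.8%) held no combination peak. Neighbours were wider than their member in 494 of 610 cases, with a median width of 729 bp. For 109 of the 610 members a region of any kind, other members included, lay within 1 kb on each side. No region of another set of lists lay within 5 kb of 401 members (34.3%), beside 12166 of all 27111 regions. The share was 24.5% for regions of the dexamethasone list alone, 33.5% for vehicle alone, 46.1% for estradiol alone and 48.7% for regions of all 4 lists. The label "needing both hormones" therefore describes where single-list calls fell, and for more than 50% of the members acetylation of another treatment was called within 1 kb.

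Receptor sites lay near about 1 member in 5. A site of any of the 4 receptor lists was within 1 kb of 249 members (21.3%, 18.97 to 23.74), beside 13.0% of all merged regions. The estradiol ER list had a site within 1 kb of 176 members (15.0%, 13.0 to 17.2; background 9.49%), and the combination ER list of 156 (13.3%, 11.4 to 15.4; background 7.05%). The dexamethasone GR list had one near 79 members (6.75%, 5.38 to 8.34; background 4.63%), and the combination GR list near 104 (8.89%, 7.32 to 10.7; background 4.54%). Sites of both receptors under the combination lay near 65 members (5.56%, 4.31 to 7.03; background 2.77%). Each of these shares was above that of all regions, and 921 members had no receptor site within 1 kb. Such shares were not particular to members. Any receptor site lay near 20.3% of regions of all 4 lists (median width 1562 bp) and 25.9% of regions of all 3 hormone lists (818 bp). Against all 4 lists, members differed by 2.68 points in combination ER (0.71 to 4.85) and -2.32 in dexamethasone GR (-3.79 to -0.62). For the other lists and both receptors the interval included 0. At 300 to under 500 bp, members were 14.7 points (8.03 to 19.2) above all 4 lists in any site.

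The sites near members were mostly ones that were also called with a single hormone, as were most sites of the combination lists. Of the 2382 combination ER sites, 2190 were in both ER lists, and of the 1628 combination GR sites, 1028 were in both GR lists. Of the 156 members with combination ER, 136 also had estradiol ER, and of the 104 with combination GR, 58 also had dexamethasone GR. The pattern counts below were not set against other regions. The commonest pattern, at 80 members, was ER with estradiol and with the combination and no GR. At 39 members the same ER sites were joined by GR under the combination and not with dexamethasone. ER with estradiol alone was found at 37 members, GR in both GR lists without ER at 31, and GR with dexamethasone alone at 17. All 4 receptor lists met at 14 members. At 11 members GR was present in both lists and ER under the combination only. The patterns without any single-hormone site were small: 7 members had combination ER alone, 5 had combination GR alone and 1 had both.

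**Figure D2:**
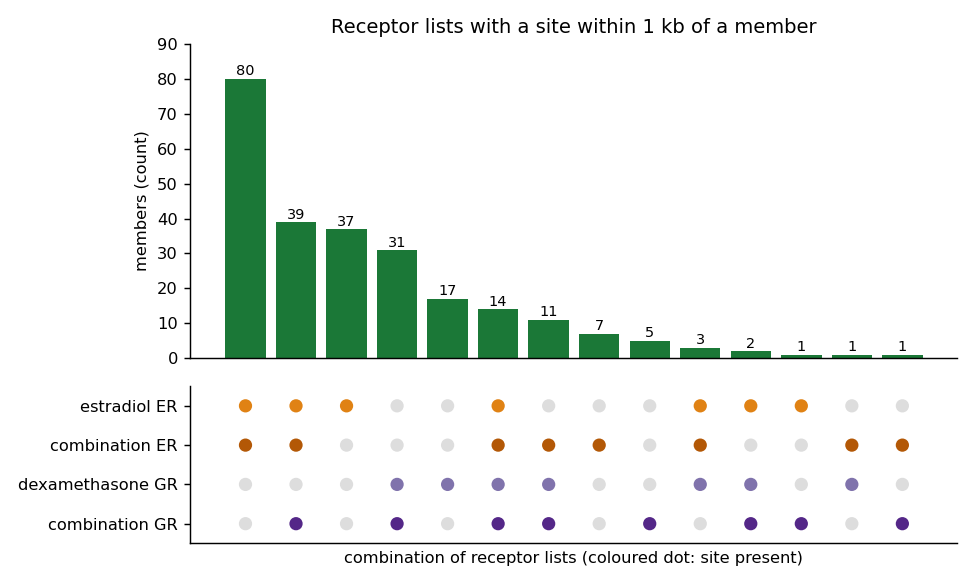
Number of members (bars, y axis) by the set of receptor lists with a site within 1 kb (coloured dots under each bar), for the 249 members with any site. The tallest bar, 80 members, holds ER under estradiol and the combination, and the next, 39 members, adds GR under the combination.

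Under the combination, ER and GR sat close together at these regions. Among the 156 members with a combination ER site, 65 (41.7%, 33.8 to 49.8) also had a combination GR site, against 39 of the 1014 without one (3.85%, 2.75 to 5.22). The summits of the ER and GR sites were a median of 17 bp apart over the 65 members, and within 100 bp at 52 of them. Members that shared a site were counted separately, and these distances were not set against other regions. Regions of the estradiol and combination lists showed a like share, 157 of 402 (39.1%, 34.3 to 44.0). The share was higher in the dexamethasone and combination regions, 40 of 54 (74.1%, 60.3 to 85.0), so the pairing was not particular to the members. Taken from GR the classes differed: of regions with combination GR, 62.5% of members also had combination ER. That share was 91.3% in estradiol and combination regions and 28.6% in dexamethasone and combination regions. With single hormones the pairing was rarer: dexamethasone GR was near 19 of the 176 members with estradiol ER (10.8%, 6.63 to 16.3).

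The members were set beside the regions that 1 other treatment shared with the combination, to ask which receptor each kind of region lay near. The share of members with an estradiol ER site was below that of the 1447 regions of the estradiol and combination lists (15.0% against 32.8%, a difference of -17.7 points, -20.8 to -14.5). Their share with a dexamethasone GR site was below that of the 916 regions of the dexamethasone and combination lists (6.75% against 16.6%, -9.84 points, -12.7 to -7.07). Across the other hormone the order turned. Members had dexamethasone GR sites more often than the estradiol and combination regions (79 of 1170 against 29 of 1447, 4.75 points, 3.19 to 6.44). They had estradiol ER sites more often than the dexamethasone and combination regions (15.0% against 3.60%, 11.4 points, 9.04 to 13.8).

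The shortfalls moved with region width. The shared regions were wider than the members, with medians of 645 bp (estradiol and combination) and 591.5 bp (dexamethasone and combination) against 344 bp. Among regions of 300 to under 500 bp, 14.5% of 677 members and 13.7% of 409 estradiol and combination regions had an estradiol ER site, a difference of 0.78 points (-3.63 to 4.92). In the same width class the difference in dexamethasone GR from the dexamethasone and combination regions was -1.22 points (-5.02 to 1.99). From 500 to under 1000 bp these differences were -4.31 (-11.1 to 3.23) and -9.25 points (-14.3 to -3.29). The excesses across the other hormone were also present between regions of like width: at 300 to under 500 bp, dexamethasone GR was 5.37 points (3.17 to 7.55) more frequent in members than in estradiol and combination regions. There, estradiol ER was 12.0 points (8.54 to 15.1) more frequent in members than in dexamethasone and combination regions.

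**Figure D3:**
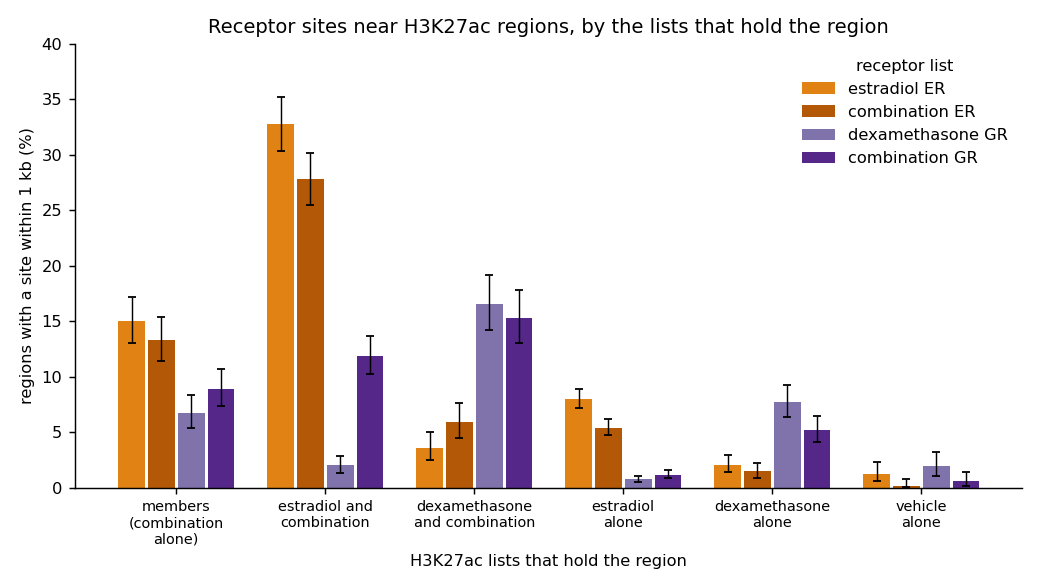
Share of H3K27ac regions with a receptor site within 1 kb (y axis, %) for members and for regions held by other sets of lists (x axis); bars are single-library shares and error lines are exact 95% intervals over regions. Members have 15.0% with estradiol ER and 8.89% with combination GR; the estradiol and combination regions are higher for both of these lists (32.8% and 11.9%), and vehicle-alone regions stay at or under 1.93%.

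Regions called in 1 list alone gave a closer match in width, with medians of 353 bp (estradiol alone), 304 bp (dexamethasone alone) and 301.5 bp (vehicle alone). Against the 3899 estradiol-alone regions, members had more estradiol ER (15.0% against 8.00%, 7.04 points, 4.91 to 9.35) and more dexamethasone GR (6.75% against 0.744%, 6.01 points, 4.67 to 7.61). Against the 1451 dexamethasone-alone regions, members had more estradiol ER (13.0 points, 10.9 to 15.2) and more combination GR (3.72 points, 1.76 to 5.76). The dexamethasone GR share did not differ beyond its interval from that of dexamethasone-alone regions (-0.97 points, -2.94 to 1.06), although at 300 to under 500 bp members were lower by -3.57 points (-6.80 to -0.51). Vehicle-alone regions, the single-list calls made without hormone, had an estradiol ER site in 1.24% and a combination GR site in 0.551% of 726 cases. None of them had both receptors under the combination (0%, up to 0.507%). Joint ER and GR sites under the combination were 4.53 points (3.30 to 6.02) more frequent in members than in estradiol-alone regions and 4.66 points (3.33 to 6.17) more frequent than in dexamethasone-alone regions. At 300 to under 500 bp members were also higher than these single-list classes, by 3.65 (2.20 to 5.56), 3.81 (1.99 to 5.75) and 4.73 points (2.93 to 6.60) for estradiol, dexamethasone and vehicle. Joint sites were not particular to the members. They lay near 10.9% of the estradiol and combination regions, more often than near members (-5.29 points, -7.37 to -3.20), and near 7.88% of regions of all 3 hormone lists, 4.67% of regions of all 4 lists and 4.37% of the dexamethasone and combination regions, where the interval of each difference from the members included 0. Between regions of 300 to under 500 bp the order against the estradiol and combination regions turned (2.53 points higher in members, 0.17 to 4.67), and members were 3.15 points (0.68 to 5.23) above the dexamethasone and combination regions.

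Members that stood alone also had receptor sites nearby. Estradiol ER was near 13.4% of the 610 members with a neighbouring region within 1 kb and near 16.8% of the 560 without one (-3.34 points, -7.49 to 0.76). Among the 401 members with no neighbour within 5 kb, 82 had estradiol ER (20.4%, 16.6 to 24.7), 37 dexamethasone GR (9.23%, 6.58 to 12.5), 44 combination GR (11.0%, 8.09 to 14.4), and 30 both receptors under the combination (7.48%, 5.10 to 10.5). Over all 12166 regions with no such neighbour, these shares were 8.15%, 3.69%, 3.59% and 2.15%. Estradiol-alone regions with no neighbour within 5 kb had both in 1.11% of 1798 cases, and members were 6.37 points higher (4.10 to 9.39). The estradiol and combination regions with no such neighbour had both in 13.8% of 508 cases, and members were lower (-6.30 points, -10.2 to -2.25). Members were also lower than these regions in estradiol ER (-18.5 points, -24.2 to -12.6).

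Stronger members had receptor sites somewhat more often. In the stronger 50% of members, 15.6% had a combination ER site against 11.1% of the weaker 50% (4.44 points, 0.54 to 8.35). Both receptors under the combination were near 7.18% and 3.93% (3.25 points, 0.61 to 5.96). For the estradiol ER list and each GR list taken singly the interval of the difference included 0. Of the 60 members in the stronger 50% of the whole combination list, 43.3% (30.6 to 56.8) had estradiol ER and 26.7% (16.1 to 39.7) had combination GR. These shares were not set against other combination peaks of that strength. Among members, the estradiol ER share also rose with width, from 8.45% under 300 bp to 14.5% at 300 to under 500 bp and 26.7% at 500 to under 1000 bp. The part of width in the differences by strength was not tested.

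The receptor summits lay beside the members and seldom inside them. Of the 176 members with an estradiol ER site, 13 (7.39%, 3.99 to 12.3) held its summit, and of the 104 with a combination GR site, 8 did (7.69%, 3.38 to 14.6). Some members shared a site: the 176 had 147 distinct nearest ER sites and the 104 had 87 GR sites. The median distance from summit to the member's edge was 242.5 bp for estradiol ER, 243.5 bp for combination ER and 234 bp for each GR list. For 88 of the 176 members (50.0%), the ER summit sat in a gap with another H3K27ac region on its far side within 1 kb. For a further 52 (29.5%) no other region was called on the far side within 1 kb. Of other regions with an estradiol ER site, such a gap was found for 45.6% of estradiol and combination and 48.5% of dexamethasone and combination regions. It was found for 37.5% of estradiol-alone regions, 46.7% of dexamethasone-alone regions and 11.0% of regions of all 4 lists. In regions of the estradiol and combination lists, 35.2% (30.9 to 39.7) of those with an estradiol ER site held its summit and the median distance was 68 bp. In regions of all 4 lists, with a median width of 1562 bp, 81.7% (79.3 to 83.9) did. Estradiol-alone regions, close to the members in width, held the summit in 13.5% (9.88 to 17.8) of such cases, with a median of 224 bp. Dexamethasone-alone regions held the estradiol ER summit in 6.67% (0.82 to 22.1) of 30 cases. They held the combination GR summit in 2.67% (0.32 to 9.30) of 75 cases.

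**Figure D4:**
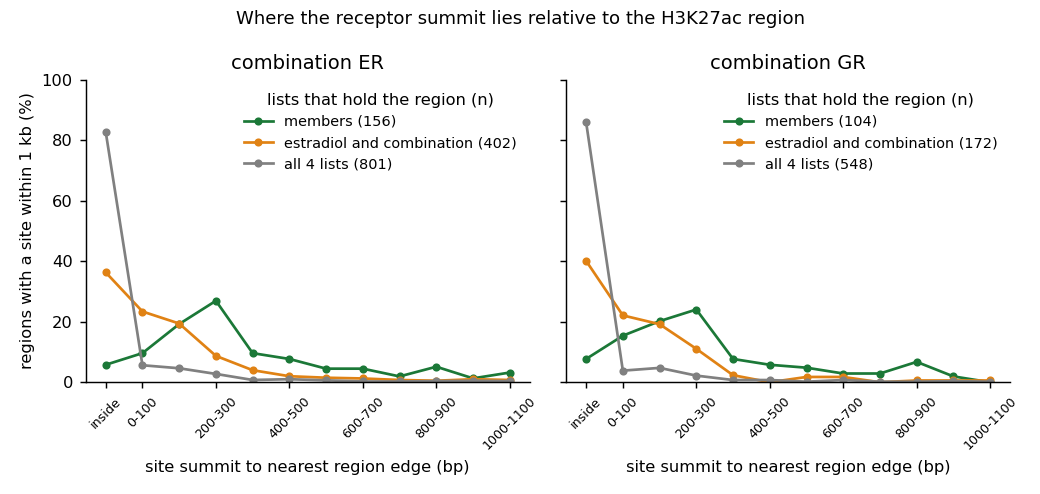
Distance from the receptor summit to the nearest edge of the H3K27ac region (x axis, bp, in steps of 100 bp; "inside" means within the region) as a share of regions with a site within 1 kb (y axis, %), for combination ER and combination GR. Members peak at 200 to 300 bp from the edge, whereas most regions of all 4 lists hold the summit; numbers of regions stand in the legends.

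The ER and combination GR sites near members had median ranks near the middle of their lists. The 147 distinct estradiol ER sites at members had a median rank at the 54.3rd percentile of their list, and the 87 combination GR sites stood at 56.1. The 69 dexamethasone GR sites ranked higher, at 72.2. Estradiol ER sites beside the estradiol and combination regions stood at 74.6, and dexamethasone GR sites beside the dexamethasone and combination regions at 80.3. Percentiles are given within a list only.

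Seen from the receptors, sites called only under the combination had a member nearby more often than sites called only with the single hormone. A member lay within 1 kb of 19 of the 192 ER sites of the combination list alone (9.90%, 6.06 to 15.0), of 112 of the 2190 in both ER lists (5.11%, 4.23 to 6.12), and of 43 of the 1360 of the estradiol list alone (3.16%, 2.30 to 4.24). For GR the same counts were 38 of 600 (6.33%, 4.52 to 8.59), 50 of 1028 (4.86%, 3.63 to 6.36) and 17 of 784 (2.17%, 1.27 to 3.45). For each receptor the interval of the combination-only sites lay above that of the single-hormone sites. The share with any combination H3K27ac peak nearby also differed. In the same order it was 54.7%, 64.3% and 52.2% for ER and 69.2%, 54.4% and 54.0% for GR. Of the sites with such a peak, 18.1%, 7.95% and 6.06% had a member for ER. For GR these shares were 9.16%, 8.94% and 4.02%, so combination-only GR sites were close to those in both lists. Most sites of every kind had no member near them. A site could serve several members: 26 estradiol ER sites, 25 combination ER sites, 9 dexamethasone GR sites and 16 combination GR sites had at least 2 within 1 kb.

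The strongest member, chr10:73425594-73426617 (hg19, 1024 bp), had a pileup of 48, a fold enrichment of 24.0 and a −log10 q of 59.3, and ranked 3390 in the combination list. The nearest peak of the other 3 H3K27ac lists was 46550 bp away. It formed a group of 5 members with chr10:73418486-73418809, chr10:73418880-73419534, chr10:73426993-73427290 and chr10:73427363-73427693. Their fold enrichments were 9.50, 15.6, 7.45 and 7.57. The nearest peak of another list was between 45474 and 54358 bp from these 5 regions. The group held 1 site of each receptor list, with fold enrichments of 16.0 for estradiol ER, 18.98 for combination ER, 12.7 for dexamethasone GR and 18.8 for combination GR. The ER summits fell in the strongest member and the GR summits 161 bp (dexamethasone) and 150 bp (combination) beyond its edge, in the gap before the next member. At this locus both receptors were therefore called with their single hormones at 1 h, while acetylation was called with the combination only.

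The largest group, 6 members between chr2:11618351-11655576, lay among calls of the estradiol and combination lists. Within it the vehicle and dexamethasone H3K27ac lists had 0 peaks, the estradiol list 6 and the combination list 10. The strongest of these members was chr2:11654888-11655576, with a pileup of 39 and a fold enrichment of 13.6. The ER sites numbered 3 with estradiol (highest fold 37.1) and 2 with the combination (highest 53.2). The dexamethasone GR list held 0 sites here and the combination GR list 2, the higher at a fold of 73.1. The members here lay 96 to 4513 bp from the nearest peak of another list. Another group, 5 members within chr3:166179377-166184109, had no receptor site and no other-list peak within the group, and its highest fold enrichment was 12.0.

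**Figure D5:**
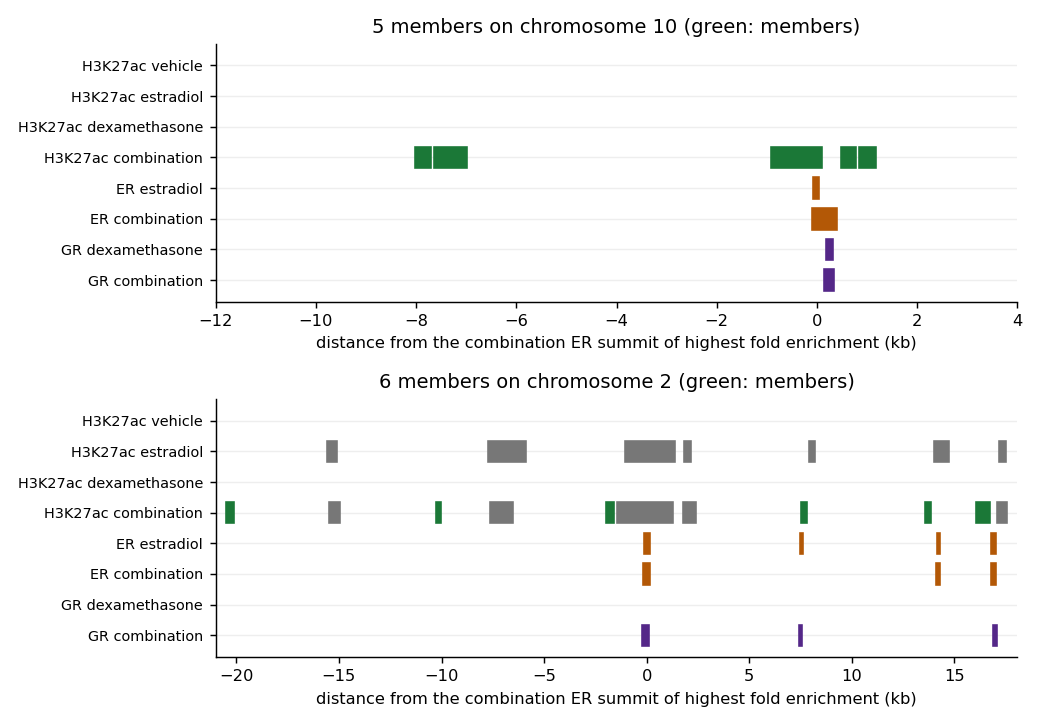
Peaks of the 8 lists (rows) around 2 groups of members, as distance in kb from the combination ER summit of highest fold enrichment; green bars are members, grey bars other H3K27ac peaks, orange ER sites and purple GR sites. On chromosome 10 the 5 members are the only H3K27ac peaks, beside sites of all 4 receptor lists; on chromosome 2 the first of the 6 members stands at the outer end, the others lie between estradiol and combination peaks, and GR appears under the combination only.

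Other strong members near both receptors under the combination repeated the pattern of summits just outside the region. At chr2:181588694-181589385 (pileup 43, fold 18.1) the estradiol ER, combination ER and combination GR summits lay 130, 129 and 130 bp from the edge, with fold enrichments of 24.6, 18.1 and 11.9. A region of the estradiol and combination lists stood 198 bp away. At chr3:117850302-117851233 (pileup 52, fold 14.1), combination GR had a fold of 33.0 and ER folds of 7.15 with estradiol and 13.3 with the combination. Dexamethasone GR was not called at either. At chr15:83587422-83588127 (pileup 40, fold 17.2) all 4 lists had a site, with ER folds of 15.4 and 31.6 and GR folds of 8.62 and 32.9 for the single hormone and the combination. Folds of different libraries are not a measure of change, because depth and control scaling differed. The nearest other-list peak there was 31777 bp away. At chr2:212287980-212288740 (pileup 36, fold 18.5) the nearest other-list peak was 54692 bp away, and combination GR had a fold of 10.5 where dexamethasone GR was not called. At chr3:156259813-156260176 (pileup 35, fold 18.0), that distance was 11938 bp and GR was again called under the combination only (fold 15.5).

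Among members with ER and no GR, the strongest was also the widest of all, chr20:8326271-8328276 (2006 bp, pileup 40, fold 17.3). It held the summits of both ER lists, with folds of 10.7 and 8.85. At chr7:28611497-28612113 (fold 15.4) and chr16:50241863-50242359 (fold 14.3) ER was called with estradiol and not with the combination, at folds of 8.68 and 7.04. At chr1:233061816-233062656 (fold 16.5) and chr1:189821532-189821930 (fold 14.5) both ER lists had a site. ER folds across these 5 members spanned 7.04 to 11.5, below the medians of 14.0 for the estradiol ER list and 14.2 for the combination ER list.

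Members with GR and no ER included chr2:121985607-121986468 and chr2:121984456-121985195, which stood on each side of a single dexamethasone GR site. Their pileups were 46 and 28, and the GR summit, of fold 19.7, lay 153 and 259 bp from their edges. The nearest other-list peak was 116539 bp from the first. Combination GR was not called there. At chr6:35699248-35699703 (pileup 44, fold 10.5) a region of the dexamethasone and combination lists stood 114 bp away, and GR folds were 61.3 with dexamethasone and 35.1 with the combination. At chr15:93070685-93071253 they were 15.4 and 11.0, and at chr21:40147199-40147588 they were 42.0 and 28.3. The chromosome 21 member lay 464 bp from a region of the dexamethasone list alone.

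Several strong members had no receptor site within 1 kb. They included chr3:156859221-156859844 (pileup 46, fold 14.2), chr13:34323096-34325057 (1962 bp, pileup 41, fold 15.2) and chr9:88660630-88661156 (pileup 42, fold 14.7). The chromosome 13 member stood 75 bp from a region of all 4 lists, and the chromosome 9 member 76 bp from a region of the estradiol and combination lists. At the weak end, chr7:83327061-83327353 had a pileup of 21 and a fold of 4.95, 282 bp from a region of the 3 other lists.

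Members were spread over the autosomes and the X chromosome at unequal rates. Chromosome 2 held 131 of them (11.2%), with 7.33% of the combination peaks. Over all chromosomes, members made up 5.61% (5.30 to 5.93) of the combination peaks. They were 11.5% (7.84 to 16.1) of the combination peaks of chromosome 21, 10.1% (7.60 to 13.0) of chromosome 13 and 9.51% (7.02 to 12.5) of chromosome 18. The lowest shares were 2.02% on chromosome 22, 2.21% on chromosome 16 and 2.59% on chromosome 19. With members up to 10 kb apart joined, 294 members fell into 127 groups of at least 2.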

How the data were processed

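Processed peak lists of 8 of the 11 samples were used. The submitters' processing notes name Bowtie 1.1.2, MACS2 2.1.0.20140616 and hg19. The p cutoff was 1e-10, per the file headers, each library was set against a control, and the larger of the pair was scaled down. Positions are deposited 1-based hg19 coordinates. The deposited pileup is a signal (fragment coverage at the summit). The deposited fold enrichment is the authors' ratio to local control. The authors gave significance as −log10 of p and of q. Usable control tags numbered 3479280 for the ER lists, 5735043 for the GR lists and 14002417 for the H3K27ac lists. The labels of the control sample, titled for H3K27ac, name both an input and IgG, so its kind is uncertain. The protocol text gives 1 h for H3K27ac as well; the treatment label, 8 h, was followed.

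Peaks were merged when overlapping or bookended (Python 3.11.15, pandas 2.3.3). Distances are edge to edge, in bp. Shares carry exact Clopper-Pearson 95% intervals (scipy 1.17.1), and differences of shares Newcombe 95% intervals. The code was tested on simulated data. Regions named are the 10 strongest members, the 5 strongest in each receptor class, the 5 widest and the 5 weakest by −log10 q, of which the report prints a selection, and the groups with the most members, added after their values were seen. The members and lists were chosen with earlier results of these data known. No hg19 genome was used, so gene names, promoters, motifs and sequences were not analysed here.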

Additional observations from a re-analysis of the deposited data

How the results depend on the processing

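No paired analysis was possible because each group is 1 library and no result comes from a test between libraries. Shares below are in the order estradiol ER, combination GR, dexamethasone GR, both receptors under the combination (main values 15.0%, 8.89%, 6.75%, 5.56%). They were 2.05%, 1.79%, 1.37% and 0.513% for sites overlapping the region, 35.9%, 22.7%, 14.8% and 17.9% within 10 kb, and 8.97%, 5.30%, 4.53% and 2.31% with the stronger 50% of each receptor list. They were 43.3%, 26.7%, 13.3% and 23.3% for the 60 members in the stronger 50% of the combination list, 26.7%, 14.4%, 9.09% and 11.2% at 500 to under 1000 bp, and 20.4%, 11.0%, 9.23% and 7.48% with no neighbour within 5 kb. With lists of equal length, estradiol ER was 20.0%, dexamethasone GR 4.40% and both receptors 7.69%. The 819 regions of that setting were in large part not among the 1170, so their like number does not mean that the members were kept. Without the dexamethasone list, the first 3 shares were 9.41%, 11.2% and 11.1% of 2275 regions. Merging peaks up to 1 kb apart left 488 regions, with both receptors near 4.30%. The share with another list's peak within 5 kb, 65.6%, was 25.8% after that merging, which removes close neighbours by construction, 58.3% in the stronger 50%, 54.2% with equal lengths and 60.5% without the dexamethasone list. The GR difference from dexamethasone and combination regions (-9.84 points) was -6.17 for overlapping sites, -13.9 within 10 kb and -1.22 at 300 to under 500 bp. The ER difference from estradiol and combination regions (-17.7 points) reversed to 0.78 at 300 to under 500 bp and was -4.31 at 500 to under 1000 bp; the cause was not tested. The setting by neighbours was chosen after seeing the data, and the widths were added to the alternatives then. The other 26 values stayed within the main interval, or within 1.5 times for a count. The alternatives for promoters and motifs were not run. Depth limits the absence of a call: a region missing from a list may lie just under its threshold.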
